A study of Mus musculus with 6 samples.

Results

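The mitochondrial solute carriers are a family of membrane proteins, named Slc25a with a number, that move small molecules across the inner membrane of mitochondria. Every protein-coding gene of GENCODE release M21 whose symbol begins with Slc25a was taken, apart from Slc25a4, Slc25a5 and Slc25a20. That rule gave 44 genes. All 44 are among the 20121 genes of the deposited count tables, and 40 of them held enough counts to be tested. The rule uses no measured values.

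The data are RNA-seq of hearts taken from mice of mixed ICR and C57BL/6 background at postnatal day 14. All 6 pups carried the knock-in allele TRalphaAMI, from which Cre recombinase can switch on a dominant negative thyroid hormone receptor alpha. The control group held 3 pups with the allele and no Cre. The mutant group held 3 littermates that also had Myh6-Cre, in which the promoter of the cardiac alpha myosin gene drives Cre in heart muscle cells. A group with Myh6-Cre but without TRalphaAMI is not part of the data, so effects of Cre itself and of the altered receptor cannot be told apart. Each library came from the heart of 1 pup, in which fewer cells of a type and less RNA per cell cannot be told apart. The comparison asks which genes depend on thyroid hormone signalling in heart muscle.

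The inner membrane of mitochondria is nearly closed to charged molecules, so the matrix depends on carriers for its substrates. Most members of this family exchange a molecule from the cytosol for one from the matrix, for example phosphate for hydroxide ions, malate for oxoglutarate or aspartate for glutamate. In heart muscle, phosphate and ADP enter and ATP leaves at a high rate, and the malate-aspartate shuttle carries the electrons of cytosolic NADH inward. Other carriers bring in the cofactors, nucleotides, amino acids and iron that matrix enzymes and mitochondrial DNA need.

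The libraries held 43314706 to 62095277 counts. Correlations of log2 CPM (counts scaled to library size) across genes were 0.992 to 0.995 within a group and 0.970 to 0.974 across groups. The scaled RPKM of Thra, the gene of the altered receptor, averaged 16.5 ± 1.84 (SD, n = 3) in control and 29.4 ± 2.24 (SD, n = 3) in mutant hearts, although counts per gene do not separate the altered from the normal transcript. Scaled RPKM, the level used below, is the count of a gene divided by its length and by a library size scaled with TMM (trimmed mean of M values). Of 12 genes listed as heart muscle markers, 11 were tested. The twelfth, the atrial light chain gene Myl7, held 3 to 22 counts a heart. Transcripts of the mitochondrial genome took 22.3% to 24.8% of counts in control and 16.7% to 18.8% in mutant hearts. With those genes left out of the fit, 2 carriers were called higher and 15 lower, close to the counts below.

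Carriers that differed were mostly lower in mutant hearts, and with no factor for library composition 8 were lower and 14 higher (beside 8.11% and 50.3% of all genes). Of the 40 tested carriers 16 fell, 2 rose and 22 did not pass at an adjusted p of 0.05 (quasi-likelihood test of edgeR, Benjamini-Hochberg over all genes). In all, 18 of 40 carriers were called, or 45%, beside 37.5% of the 14877 genes tested. The share of carriers that fell stands beside 19.5% of all genes that fell, and the share that rose beside 18.1% that rose. The median log2 fold change, mutant over control, was -0.19 over the carriers and -5.46e-04 over all genes.

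The scaling of the libraries bears on many of the smaller decreases. Without a factor for composition the median of all genes moved to 0.28 and that of the carriers to 0.10. Leaving out the factor moves every gene by nearly the same amount. The distance of the carriers from the median gene therefore stayed at -0.19, which is no test of the scaling. By limma on log2(RPKM + 0.1) and log2(RPKM + 1) that distance was -0.19 and -0.11. The carriers Slc25a11, Slc25a12, Slc25a13, Slc25a22, Slc25a29, Slc25a33 and Slc25a35 were called lower in the main test and in each of 14 alternatives, which included leaving out each heart in turn. With TMM scaling, 21 of the 40 carriers had control and mutant values that did not overlap, 18 of them lower and 3 higher, beside 49.8% of all genes (25.4% lower and 24.4% higher).

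**Figure D1:**
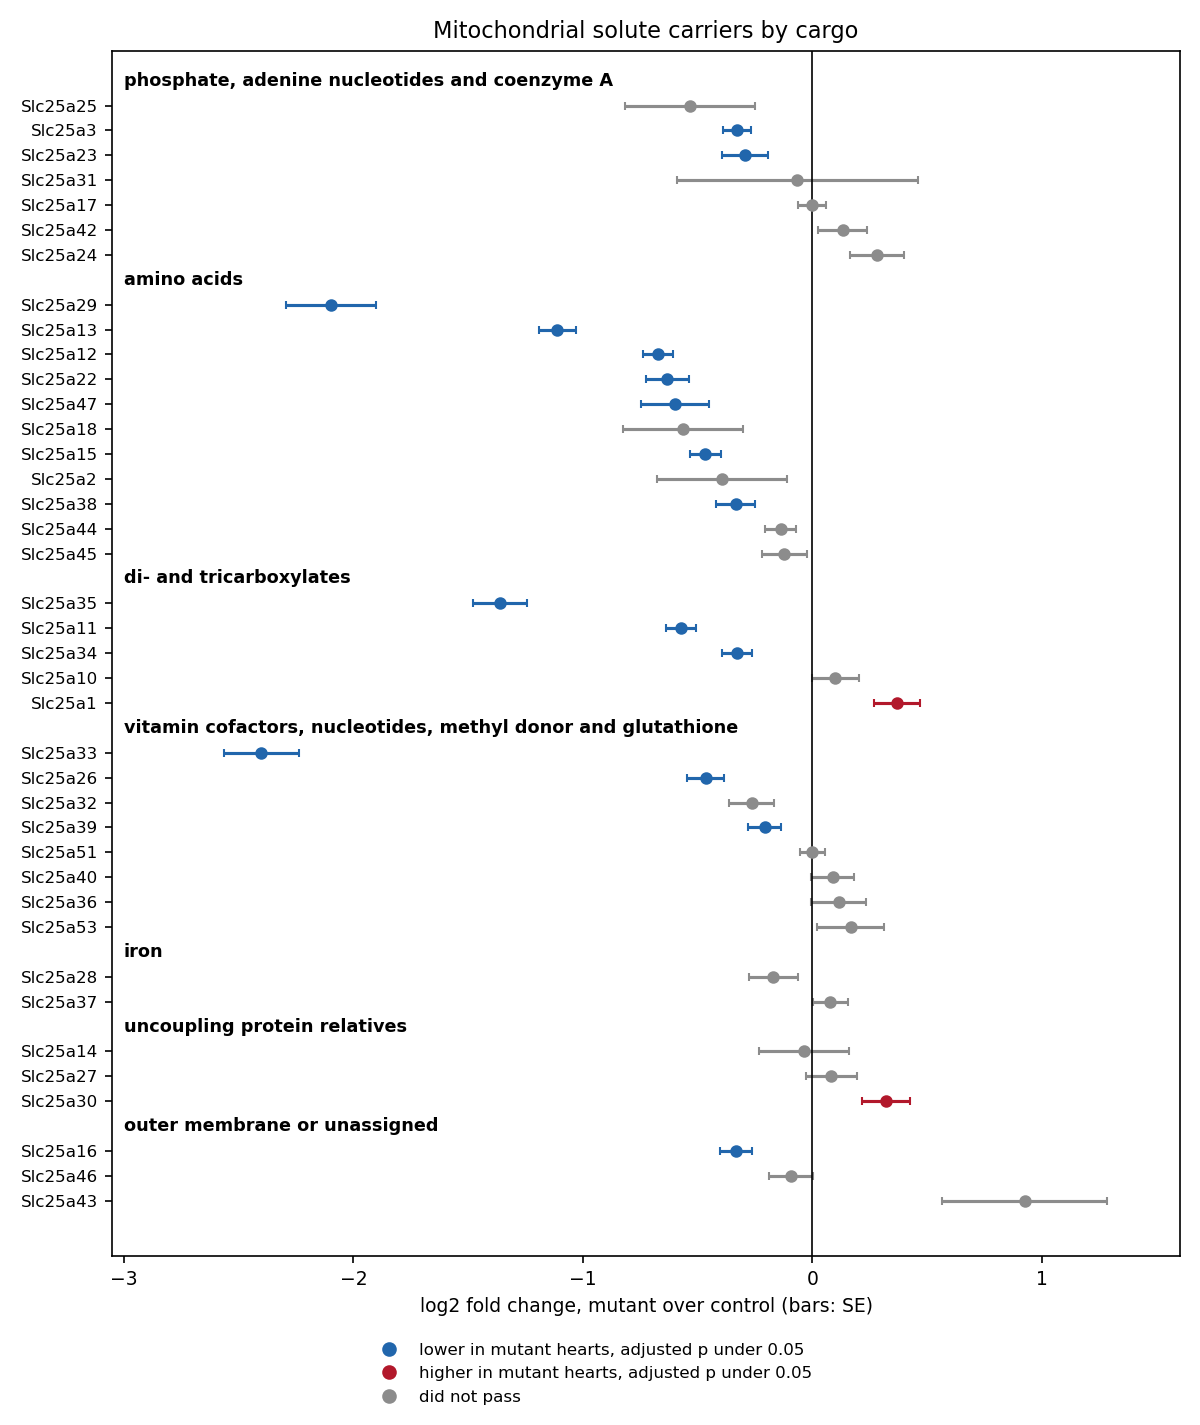
Log2 fold change of 39 tested carriers, mutant over control hearts, with SE as bars, grouped by cargo. Blue marks the 16 carriers that were lower and red the 2 that were higher at an adjusted p under 0.05, and the longest distances from 0 to the left are those of Slc25a33 and Slc25a29.

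The level summed over the 44 genes went from 842 ± 18.3 scaled RPKM in control hearts to 655 ± 11 in the mutant group (SD, n = 3 in each group). That difference depends on the TMM scaling. As a share of raw counts, not divided by gene length, the carriers took 0.308%, 0.320% and 0.316% in control hearts. In mutant hearts the share was 0.300%, 0.298% and 0.311%, so the groups overlapped. The 3 most abundant carriers, Slc25a3, Slc25a11 and Slc25a34, took 63.1% to 63.7% of the summed level in control hearts and 61.0% to 62.4% in mutant hearts. The 6 carriers with the highest mean level over the 6 hearts, these 3 with Slc25a39, Slc25a12 and Slc25a13, were all called lower. Of the next 6 by level, 1 was called lower and 5 did not pass. Among the remaining 28, 9 were lower, 2 were higher and 17 did not pass. These counts stand beside 19.5% of all genes that were lower and 18.1% that were higher. Of the 6 most abundant, Slc25a3, Slc25a34 and Slc25a39 lost their calls with no composition factor.

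**Figure D2:**
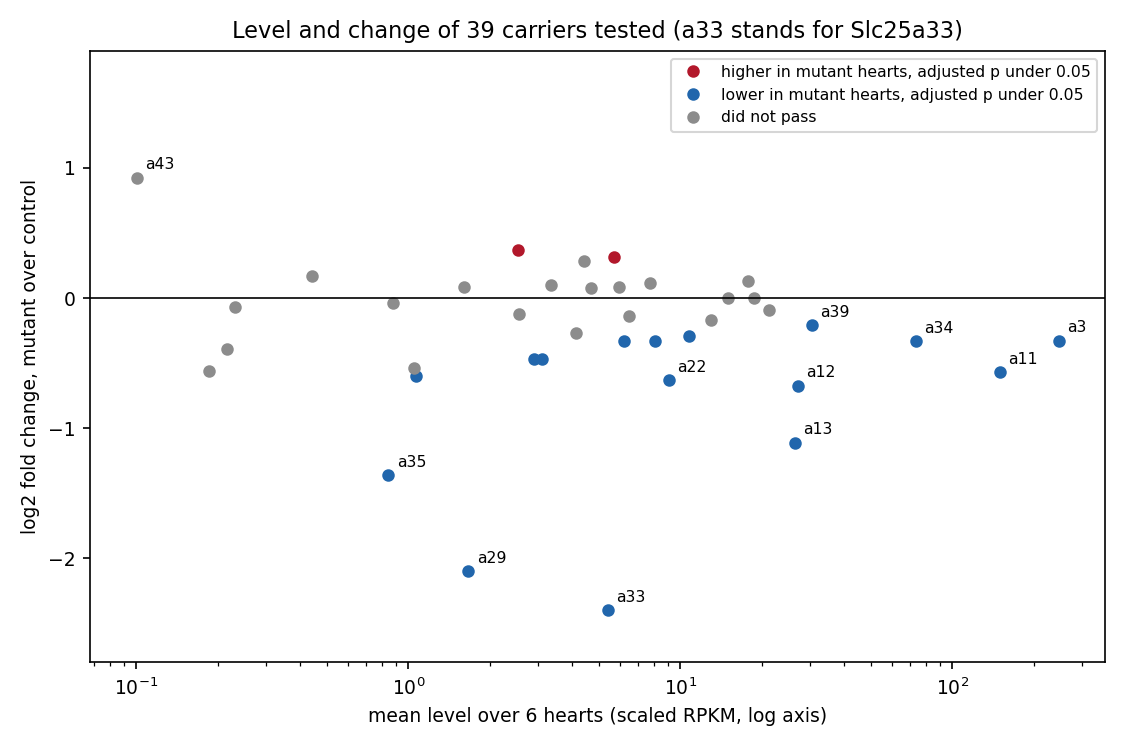
Mean level over 6 hearts (scaled RPKM, log axis) against log2 fold change for 39 tested carriers, with colours as calls of the edgeR test. The 6 carriers at the right all lie below 0, while carriers of middle level lie on both sides.

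Of 7 tested carriers of phosphate, adenine nucleotides and coenzyme A, 2 fell and 5 did not pass, with a median log2 fold change of -0.07. The share called, 28.6%, stands beside 37.5% of all genes (19.5% lower and 18.1% higher). Slc25a3, the phosphate carrier that supplies ATP synthase, stood at 269, 279 and 272 scaled RPKM in control hearts and 222, 209 and 224 in mutant hearts. All mutant values lay below all control values, a log2 fold change of -0.33 ± 0.06 (SE, edgeR adjusted p = 0.00255). With no factor for composition the adjusted p of Slc25a3 was 0.588.

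Slc25a23, Slc25a24 and Slc25a25 encode carriers that exchange ATP-magnesium for phosphate and are switched on by calcium. Slc25a23 measured 9.85, 12.7 and 12.9 scaled RPKM in control and 9.42, 10.1 and 9.37 in mutant hearts. The lowest control heart lay among the mutant values, and the call (log2 fold change -0.29, edgeR adjusted p = 0.0449) was lost in 9 of 14 alternatives, among them leaving out any heart but control replicate 1 (adjusted p up to 0.158). Slc25a24 measured 4.79, 3.87 and 3.37 in control and 4.88, 4.95 and 4.75 scaled RPKM in mutant hearts, with 1 control heart among the mutant values (log2 fold change 0.28, edgeR adjusted p = 0.0865). Without control replicate 1, the control heart with the highest Slc25a24, it was 0.42 and passed (edgeR adjusted p = 0.00798). Slc25a25 was the most scattered of the 3 genes, at 0.868, 0.995 and 1.85 in control and 1.14, 0.752 and 0.685 scaled RPKM in mutant hearts, with overlapping groups (edgeR adjusted p = 0.169).

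The other tested carriers of this group did not pass. Slc25a42, which carries coenzyme A, had a log2 fold change of 0.13 ± 0.11 (SE). Slc25a17, a family member of peroxisomes, had one of -0.00 ± 0.06, and its sign turned under other scalings. Slc25a31, an ADP/ATP carrier known from testis, was at 0.230 scaled RPKM over the 6 hearts, with a log2 fold change of -0.07 ± 0.53. Slc25a41, the fourth ATP-magnesium carrier gene, held 5 counts in all control and 4 in all mutant hearts and was not tested.

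Of 11 tested carriers grouped here under amino acids, 7 fell, 0 rose and 4 did not pass. The share called, 63.6%, stands beside 37.5% of all genes (19.5% lower and 18.1% higher). This grouping counts Slc25a45 and Slc25a47, for which no amino acid cargo is given here. All 11 had a negative log2 fold change with TMM scaling, with a median of -0.56. Without a composition factor, Slc25a44 and Slc25a45 had positive values. Of these 11, 5 were called and fell at least 1.5-fold, and of all 40 tested carriers 7 did, beside 7.64% of all genes tested. The 5 include Slc25a47, whose call was lost with no composition factor (edgeR adjusted p = 0.106). Of the 40 carriers 0 were called and rose at least 1.5-fold, beside 8.62% of all genes.

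Slc25a12 (aralar) and Slc25a13 (citrin) encode the calcium-activated aspartate/glutamate carriers, the step of the malate-aspartate shuttle that sends aspartate out of the matrix. Slc25a13 (ENSMUSG00000015112, mm10 chromosome 6, 6041218 to 6217173, minus strand) was at 40.1, 35.3 and 33 scaled RPKM in control hearts and 17.3, 16.9 and 15.9 in mutant hearts. Every mutant heart held about the same level, less than the lowest control heart by a wide gap. The log2 fold change was -1.11 ± 0.08 (SE, edgeR adjusted p = 7.27e-06), a 2.16-fold fall. Slc25a12 (ENSMUSG00000027010, mm10 chromosome 2, 71271063 to 71367749, minus strand) was at 33.5, 34.7 and 31.8 scaled RPKM in control hearts and 22.0, 19.7 and 21.0 in mutant hearts. These groups were also separate, with a log2 fold change of -0.67 ± 0.07 (SE, edgeR adjusted p = 4.62e-05).

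The bases just before the start sites of this pair are shown because both genes fell, and by different amounts. They come from RefSeq (GRCm38.p6), leave out bases that GENCODE counts as exon, and run 5′ to 3′ on the minus strand, the coding strand of both genes. Capitals mark the E-box CACGTG, the one searched motif found in the bases shown of this pair. The positions are chr2:71367756-71368005 for Slc25a12 and chr6:6217174-6217423 for Slc25a13.
Slc25a12: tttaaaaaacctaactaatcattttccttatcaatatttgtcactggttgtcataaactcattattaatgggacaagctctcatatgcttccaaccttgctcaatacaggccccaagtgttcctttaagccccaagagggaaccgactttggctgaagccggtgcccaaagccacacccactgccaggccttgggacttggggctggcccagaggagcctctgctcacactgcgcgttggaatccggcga
Slc25a13: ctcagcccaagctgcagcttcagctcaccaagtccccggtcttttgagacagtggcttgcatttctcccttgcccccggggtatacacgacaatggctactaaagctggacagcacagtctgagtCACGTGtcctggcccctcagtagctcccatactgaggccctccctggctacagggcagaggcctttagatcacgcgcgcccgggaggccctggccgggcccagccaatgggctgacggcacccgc

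Slc25a29, a carrier of the basic amino acids arginine and lysine (ENSMUSG00000021265, mm10 chromosome 12, 108825873 to 108835883, minus strand), was at 1.9, 3.17 and 3.0 scaled RPKM in control hearts and 0.678, 0.578 and 0.640 in mutant hearts. Control replicate 1 was the lowest control heart, and still well above every mutant heart. The fall was 4.28-fold, a log2 fold change of -2.10 ± 0.20 (SE, edgeR adjusted p = 3.75e-05). Slc25a47, a carrier known mainly from liver, lies next to Slc25a29 on chromosome 12 on the other strand, with 162 bases between the 2 genes in GENCODE and 15253 bases between their start sites in RefSeq. Slc25a47 was at 1.05, 1.30 and 1.49 scaled RPKM in control hearts and 0.776, 0.859 and 0.908 in mutant hearts. The groups did not overlap (log2 fold change -0.60 ± 0.15, edgeR adjusted p = 0.0110), and with no composition factor the adjusted p was 0.106.

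Slc25a22, the main glutamate carrier gene of these hearts (ENSMUSG00000019082, mm10 chromosome 7, 141429744 to 141437892, minus strand), was at 9.63, 10.8 and 12.6 scaled RPKM in control hearts and 6.94, 7.00 and 7.37 in mutant hearts. The mutant hearts were close together and all below the control hearts, a log2 fold change of -0.63 ± 0.09 (SE, edgeR adjusted p = 6.59e-04). Slc25a18, the second glutamate carrier gene, was scarce at 0.199, 0.231 and 0.233 in control and 0.123, 0.143 and 0.182 scaled RPKM in mutant hearts. Its groups did not overlap, but it held only 62 counts over the control and 45 over the mutant hearts and did not pass (edgeR adjusted p = 0.121).

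Slc25a15, an ornithine carrier of the urea cycle, fell by 0.47 ± 0.07 on the log2 scale (SE, edgeR adjusted p = 5.12e-04). That call was kept in 12 of 14 alternatives and lost by limma on log2(RPKM + 0.1) and log2(RPKM + 1) (limma adjusted p up to 0.0580). Slc25a38, which brings in glycine for the first step of heme synthesis, fell by 0.33 (edgeR adjusted p = 0.0124). The call of Slc25a38 was lost without control replicate 2 (edgeR adjusted p = 0.0589) and with no composition factor (0.677). Slc25a44, a carrier of branched-chain amino acids, missed the threshold at a log2 fold change of -0.14 ± 0.07. The same holds for Slc25a45 (-0.12 ± 0.10) and for the second ornithine carrier gene Slc25a2 (-0.39 ± 0.28, from 49 counts in control and 40 in mutant hearts). Slc25a48 held 0 counts in each control heart, where a count of 0 allows up to 3, and 3 counts over the mutant hearts.

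**Figure D3:**
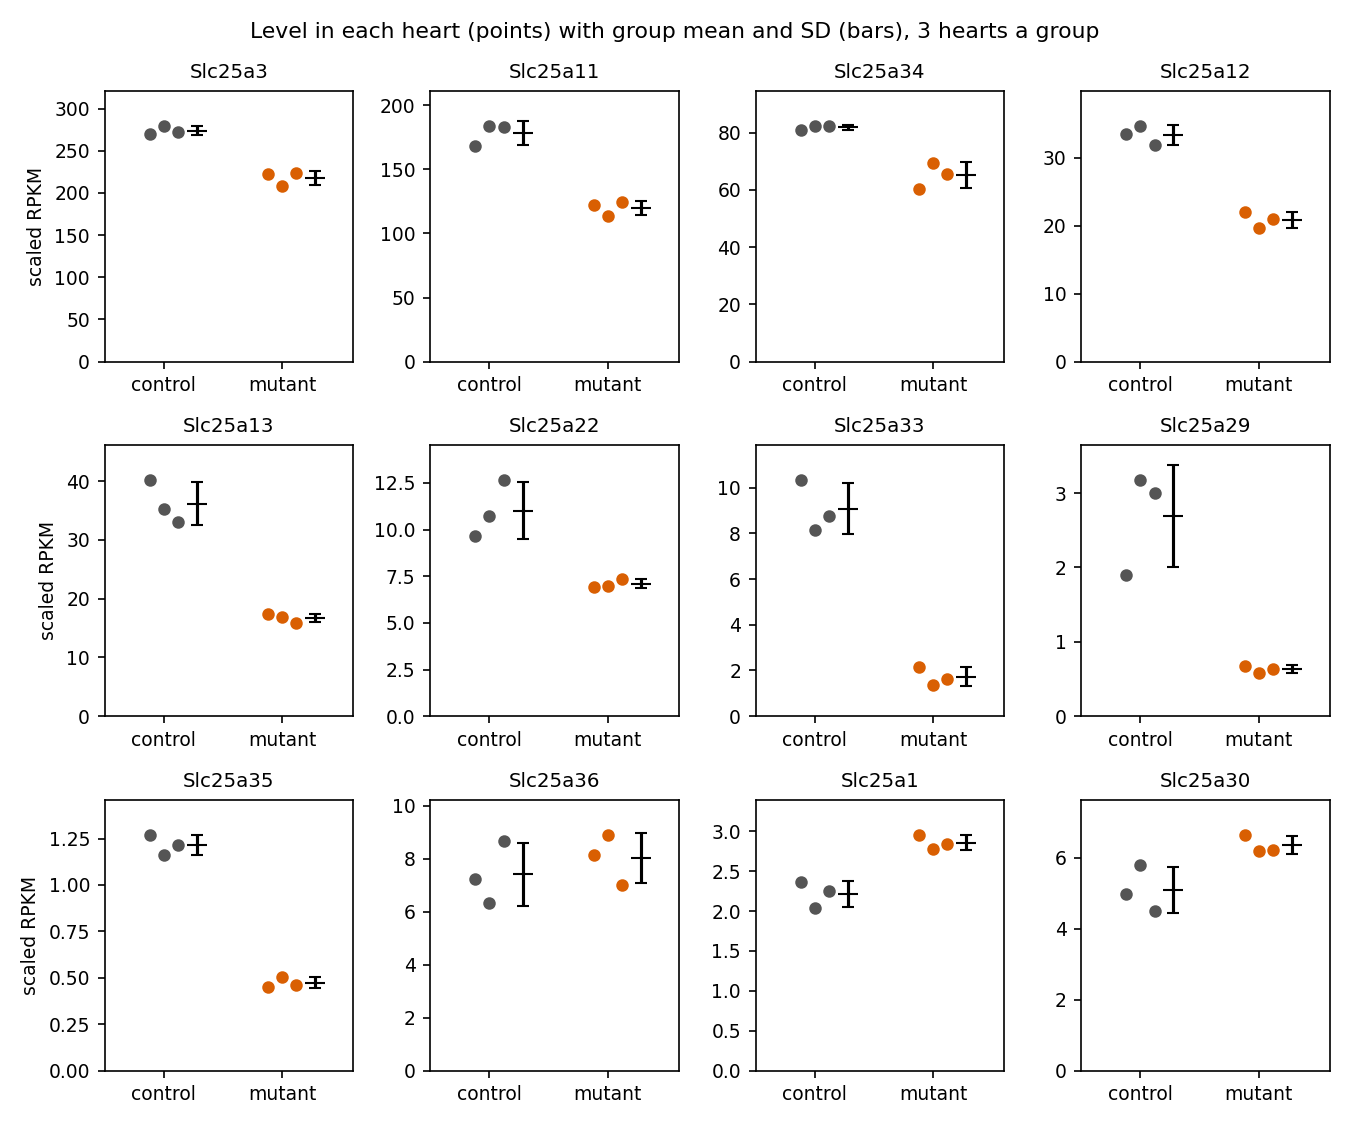
Level of 12 carriers in each heart (scaled RPKM, linear axes from 0), with points for hearts and the mean ± SD of 3 hearts beside them. Slc25a13, Slc25a29, Slc25a33 and Slc25a35 show a clear gap between the groups, the groups of Slc25a36 overlap, and Slc25a1 and Slc25a30 are higher in the mutant hearts.

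Carriers of dicarboxylates and tricarboxylates went both ways. Of 5 tested, 3 fell, 1 rose and 1 did not pass, beside 19.5% of all genes that fell and 18.1% that rose. Slc25a11, the oxoglutarate/malate carrier and the other exchange step of the malate-aspartate shuttle (ENSMUSG00000014606, mm10 chromosome 11, 70644196 to 70647479, minus strand), was at 168, 184 and 183 scaled RPKM in control hearts and 122, 114 and 124 in mutant hearts. The groups were separate, with a log2 fold change of -0.57 ± 0.07 (SE, edgeR adjusted p = 1.29e-04). Its exons share 8.91% of their bases with Rnf167 on the opposite strand, and the library kit does not mark strand. Rnf167 did not pass (log2 fold change -0.13, edgeR adjusted p = 0.330).

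Slc25a34 and Slc25a35 are close relatives whose cargo is not settled. They are grouped here by their likeness to carriers of small organic acids. Slc25a34 was the third most abundant carrier, at 80.9, 82.2 and 82.4 scaled RPKM in control hearts and 60.4, 69.4 and 65.6 in mutant hearts. The groups did not overlap (log2 fold change -0.33 ± 0.07, edgeR adjusted p = 0.00331), but with no composition factor the adjusted p was 0.618. Slc25a35 (ENSMUSG00000018740, mm10 chromosome 11, 68968131 to 68974365, plus strand) was at 1.27, 1.16 and 1.22 scaled RPKM in control hearts and 0.448, 0.506 and 0.463 in mutant hearts. The level of Slc25a35 in every mutant heart was far below that in every control heart, a 2.57-fold fall (log2 fold change -1.36 ± 0.12, edgeR adjusted p = 2.34e-05). Of its exon bases, 31.3% lie opposite Rangrf, which held 11 counts over the control and 9 over the mutant hearts.

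Slc25a1, the citrate carrier that exports citrate for lipid synthesis, was 1 of the 2 carriers that rose. Control hearts held 2.36, 2.04 and 2.25 and mutant hearts 2.96, 2.78 and 2.84 scaled RPKM of Slc25a1. All mutant values were above all control values (log2 fold change 0.37 ± 0.10, edgeR adjusted p = 0.0163), and without control replicate 2 the adjusted p of Slc25a1 was 0.0704. Slc25a10, the dicarboxylate carrier, did not pass (log2 fold change 0.10 ± 0.10). Slc25a21, the oxodicarboxylate carrier, held 1 count over the control and 8 over the mutant hearts and was not tested.

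Of 9 tested carriers grouped here under cofactors, nucleotides, the methyl donor S-adenosylmethionine and glutathione, 3 fell and 6 did not pass. The share called, 33.3%, was near the 37.5% of all genes (19.5% lower and 18.1% higher). With TMM scaling, the fall of Slc25a33 was the largest among the 40 tested carriers. Slc25a33 and Slc25a36 carry pyrimidine nucleotides, which mitochondria need to make their DNA and RNA. Slc25a33 (ENSMUSG00000028982, mm10 chromosome 4, 149744036 to 149774277, minus strand) was at 10.3, 8.15 and 8.78 scaled RPKM in control hearts and 2.17, 1.36 and 1.62 in mutant hearts. The highest mutant heart was far below the lowest control heart, a 5.28-fold fall with a log2 fold change of -2.40 ± 0.16 (SE, edgeR adjusted p = 5.07e-06). Gm13068, a gene on the opposite strand that covers 14.9% of the exon bases of Slc25a33, held 55 counts over the control and 13 over the mutant hearts, against 2458 and 507 of Slc25a33.

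Slc25a36 was at 7.22, 6.33 and 8.67 scaled RPKM in control hearts and 8.14, 8.90 and 7.01 in mutant hearts. Its groups overlapped, and it did not pass (log2 fold change 0.11 ± 0.12, edgeR adjusted p = 0.495). Bases before the start sites of this pair are shown because 1 gene fell and the other did not pass. They were taken from RefSeq as above, and run 5′ to 3′ on the minus strand, which is the coding strand of both. Capitals mark CACGTG and the cyclic AMP response element TGACGTCA. The positions are chr4:149774278-149774517 for Slc25a33 and chr9:97111158-97111291 for Slc25a36.
Slc25a33: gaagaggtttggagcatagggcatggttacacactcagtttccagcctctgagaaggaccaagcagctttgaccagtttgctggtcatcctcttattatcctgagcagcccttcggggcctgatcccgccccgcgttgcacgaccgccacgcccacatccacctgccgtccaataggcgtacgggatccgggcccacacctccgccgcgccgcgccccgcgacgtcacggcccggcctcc
Slc25a36: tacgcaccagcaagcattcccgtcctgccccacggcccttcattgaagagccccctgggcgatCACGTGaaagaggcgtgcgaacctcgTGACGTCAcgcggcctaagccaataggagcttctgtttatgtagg

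Slc25a39 and Slc25a40 encode the glutathione carriers. Slc25a39 was at 29.8, 35.2 and 32.8 scaled RPKM in control hearts and 29.0, 28.2 and 27.4 in mutant hearts. The gap between the groups was narrow (log2 fold change -0.21 ± 0.07, edgeR adjusted p = 0.0463), and with no composition factor the value was 0.08. The call was lost in 9 of 14 alternatives, among them leaving out control replicate 2 or 3 or mutant replicate 2 or 3 (adjusted p up to 0.175). Slc25a40 was much scarcer, at 1.69, 1.54 and 1.41 in control and 1.71, 1.72 and 1.51 scaled RPKM in mutant hearts, with overlapping groups (edgeR adjusted p = 0.502).

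Slc25a26, which brings S-adenosylmethionine into the matrix for methylation, fell by 0.47 ± 0.08 on the log2 scale (SE, edgeR adjusted p = 0.00170), a call lost with no composition factor (adjusted p = 0.0862). Slc25a32, which carries folate and flavin cofactors, had separate groups but did not pass (log2 fold change -0.27 ± 0.10, edgeR adjusted p = 0.0591). The adjusted p of Slc25a32 was 0.0447 without mutant replicate 1 (log2 fold change -0.32, edgeR). Slc25a51, the carrier of NAD, was at 18.6, 19.2 and 18.3 scaled RPKM in control hearts and 18.6, 18.8 and 18.6 in mutant hearts. These were among the steadiest values of the family, with a log2 fold change of 0.00 ± 0.05 with TMM and 0.29 with no composition factor. Slc25a53, with no settled cargo, did not pass (log2 fold change 0.17 ± 0.15).

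Neither iron carrier passed with TMM scaling, and with no composition factor Slc25a37 was higher (log2 fold change 0.36, edgeR adjusted p = 0.00412). Slc25a28 (mitoferrin 2), the form of most tissues, was at 12.1, 13.2 and 15.9 scaled RPKM in control hearts and 11.8, 11.4 and 13.4 in mutant hearts, with overlapping groups (edgeR adjusted p = 0.244). Slc25a37 (mitoferrin 1), the form that red blood cell precursors need, was at 4.65, 4.19 and 4.86 in control and 4.48, 4.97 and 5.02 scaled RPKM in mutant hearts, also overlapping (edgeR adjusted p = 0.464). The summed level of 10 listed red blood cell markers was 196 to 306 scaled RPKM in control and 114 to 297 in mutant hearts, and 0 of the 6 tested passed.

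Of the 3 relatives of the uncoupling proteins, 1 rose, beside 18.1% of all genes that rose. Slc25a30 was at 4.98, 5.79 and 4.5 scaled RPKM in control hearts and 6.64, 6.20 and 6.23 in mutant hearts. The groups did not overlap (log2 fold change 0.32 ± 0.10, edgeR adjusted p = 0.0376). However, the call was lost when any heart but control replicate 2 was left out (adjusted p up to 0.114). Slc25a14 (-0.04 ± 0.20) and Slc25a27 (0.08 ± 0.11), both better known from brain, did not pass.

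The last 4 genes have another site or no settled cargo. Slc25a16 fell by 0.33 ± 0.07 on the log2 scale (SE, edgeR adjusted p = 0.00490), a call lost with no composition factor (adjusted p = 0.578). Slc25a46, which sits in the outer membrane and acts in the shape of mitochondria, was at 23.5, 20.8 and 21.0 scaled RPKM in control hearts and 23.5, 18.9 and 18.8 in mutant hearts. The groups of Slc25a46 overlapped (edgeR adjusted p = 0.478). Slc25a43 was at or below 0.154 scaled RPKM in every heart, with 18 counts over the control and 37 over the mutant hearts. Its groups did not overlap, and its log2 fold change of 0.92 ± 0.36 was the highest of the tested carriers but did not pass (edgeR adjusted p = 0.0703). With no composition factor it passed (edgeR adjusted p = 0.0170). Slc25a54 held 1 count in each group and was not tested.

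Ratios of carriers with the same cargo were compared within each heart, since such a ratio does not depend on the scaling of the library. Its position relative to 1 depends on the gene lengths used, and the difference between groups does not. There were 7 pairs, and 3 hearts against 3 cannot give an exact two-sided permutation p below 0.1. The ratio of Slc25a12 to Slc25a13 was 0.834, 0.983 and 0.964 in control hearts and 1.27, 1.16 and 1.32 in mutant hearts. Every mutant ratio lay above every control ratio, a difference of 0.43 in the log2 ratio (exact permutation p = 0.1, adjusted p = 0.233 over 7 pairs). The ratio of Slc25a33 to Slc25a36 was 1.43, 1.29 and 1.01 in control hearts and 0.267, 0.153 and 0.231 in mutant hearts. The mutant ratios were all far below the control ratios, a difference of -2.54 in the log2 ratio (exact permutation p = 0.1, adjusted p = 0.233).

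Slc25a24 to Slc25a23 gave 0.486, 0.305 and 0.262 in control and 0.518, 0.488 and 0.506 in mutant hearts. The groups were separate only by the narrowest gap, between control replicate 1 and mutant replicate 2 (log2 difference 0.57, exact permutation p = 0.1, adjusted p = 0.233). For the other 4 pairs the groups overlapped. The log2 difference was -0.04 for Slc25a22 to Slc25a18, 0.24 for Slc25a37 to Slc25a28, 0.29 for Slc25a40 to Slc25a39 and -0.20 for Slc25a25 to Slc25a23. Exact permutation p-values for these were 1, 0.3, 0.2 and 0.5.

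**Figure D4:**
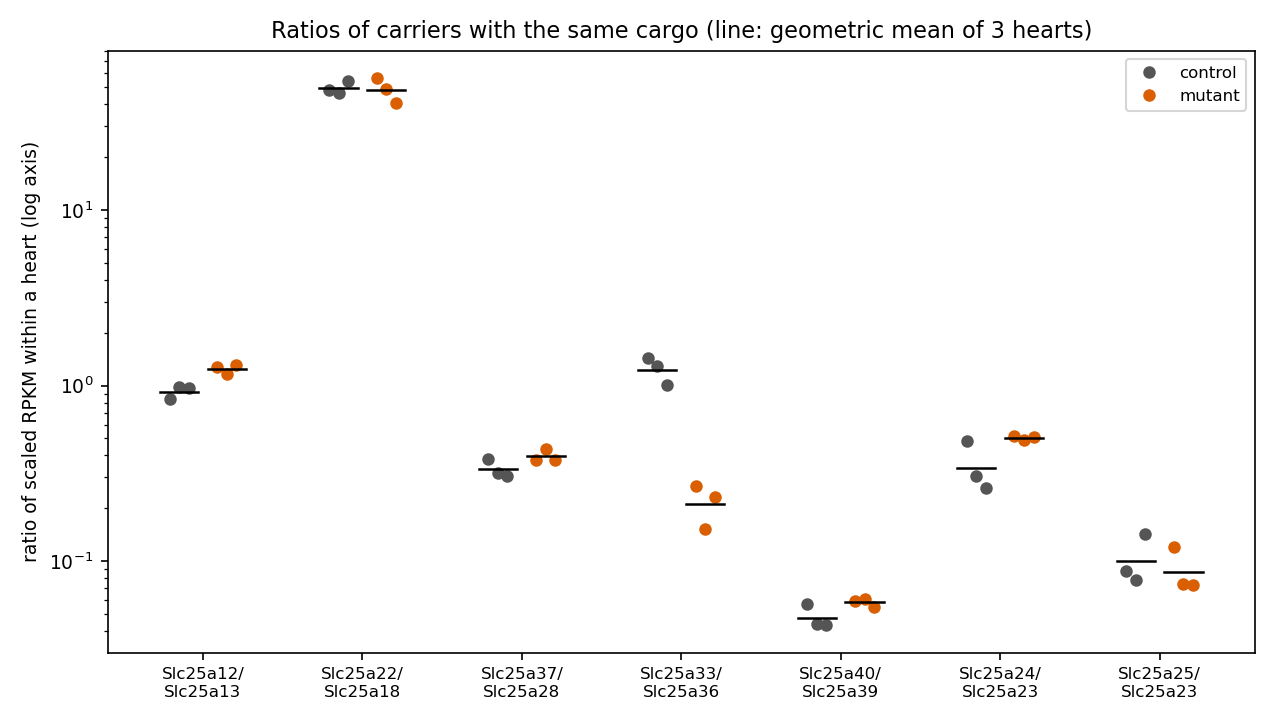
Ratio of scaled RPKM within each heart for 7 pairs of carriers with the same cargo (log axis), with points for hearts and lines for the geometric mean of 3 hearts. Slc25a33 to Slc25a36 shows the widest separation, and the mutant ratios of Slc25a12 to Slc25a13 all lie above the control ratios.

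Promoter windows from RefSeq, 250 bases before to 50 after a start site, matched 33 of the 44 carriers by symbol. Motifs were searched on both strands. CACGTG occurred in 7 of the 33 carriers (Slc25a1, Slc25a13, Slc25a14, Slc25a15, Slc25a31, Slc25a33 and Slc25a36) and in 8.09% of all 27025 genes with a window. In Slc25a33 the match lies in the bases near and after the start that are not shown above. Of these 7 carriers 3 fell, 1 rose and 3 did not pass, beside 19.5% of all genes tested that fell and 18.1% that rose. The half-site AGGTCA of nuclear receptors, which is also part of the next 2 motifs, was in 4 carriers (Slc25a34, Slc25a39, Slc25a45 and Slc25a47) and in 18.1% of all genes. The direct repeat of that half-site with 4 bases between, a thyroid hormone response element, was in 0 carriers and in 0.0148% of genes. TCAAGGTCA, an element of estrogen-related receptors, was in 0 carriers and 0.466% of genes. The site of NRF1 was in Slc25a3 and Slc25a31 and in 5.19% of genes, and TGACGTCA was in Slc25a25 and Slc25a36 and in 2.03%.

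Lists of genes around the carriers were counted with the same test. Of 33 enzymes that make or use the cargo, 16 fell, 2 rose and 15 did not pass, with a median log2 fold change of -0.25. Over all genes 19.5% fell and 18.1% rose, and with no composition factor 9 of these enzymes were lower and 8 higher. The 4 with the smallest adjusted p were the enzymes of the malate-aspartate shuttle, and these 4 fell in every alternative too, as Slc25a11, Slc25a12 and Slc25a13 did. Got1, the cytosolic aspartate aminotransferase, went from 239 ± 13.7 scaled RPKM in control hearts to 99.9 ± 3.65 in mutant hearts (SD, n = 3 each), 2.39-fold lower. Its mitochondrial form Got2 fell 1.97-fold, and the malate dehydrogenase genes Mdh1 and Mdh2 fell 1.64-fold and 1.55-fold. A fall in every alternative was not particular to the shuttle, as Gpd2, Fech, Alas1, Iscu and Nmnat1 of this list showed it too. In the main test Alas1 fell 1.87-fold and Gpd2 1.78-fold. The members that rose were Nadk2, the mitochondrial NAD kinase (log2 fold change 0.31, edgeR adjusted p = 0.00244), and Acly, which splits the citrate that Slc25a1 exports (0.18, edgeR adjusted p = 0.0494). The call of Acly was lost in 6 of 14 alternatives, among them leaving out any heart but mutant replicate 1.

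Of 24 other transporters and channels of mitochondria, 11 fell, 0 rose and 13 did not pass, a median of -0.26. The share called, 45.8%, stands beside 37.5% of all genes (19.5% lower and 18.1% higher). Letm1, an ion exchange protein of the inner membrane, went from 14.1 ± 0.937 scaled RPKM in control hearts to 3.77 ± 0.210 in mutant hearts (SD, n = 3 each), 3.74-fold lower. Both subunits of the pyruvate carrier fell, Mpc1 2.08-fold and Mpc2 1.96-fold, and the outer membrane channel gene Vdac1 fell 1.43-fold. With no composition factor 4 genes of this list were lower and 4 higher, and without mutant replicate 2 the main test called 7 lower.

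Of 13 genes that bring carriers to the inner membrane and insert them, 5 fell and 8 did not pass, with a median of -0.15. The share called, 38.5%, was near the 37.5% of all genes. Timm8b fell 1.51-fold, Timm29 1.35-fold, Tomm40 1.35-fold and Timm13 1.28-fold. The fifth, Timm22 (edgeR adjusted p = 0.0470), lost its call in 12 of 14 alternatives. With no composition factor 1 was lower, Timm8b, and 2 were higher. Among 8 relatives outside the rule, 6 of 7 tested fell and Slc25a5, the ADP/ATP carrier of many tissues, did not pass (log2 fold change -0.07). The share of all genes that fell was 19.5%. The uncoupling protein genes Ucp2 and Ucp3 fell 3.33-fold and 2.09-fold, and Mtch2, an outer membrane insertase, fell 1.29-fold. With no composition factor 3 of the 7 were lower and 1 was higher. Slc25a4, the main ADP/ATP carrier of muscle, went from 2283 ± 187 scaled RPKM in control hearts to 1357 ± 51.7 in mutant hearts (SD, n = 3 each), 1.68-fold lower. Its level was far above that of Slc25a3.

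Markers of other cells of the heart were also called, in part depending on the scaling. The counts below stand beside 19.5% of all genes that fell and 18.1% that rose. Of 8 macrophage markers 7 fell, with a summed level of 54.4 to 60.3 scaled RPKM in control and 35.6 to 37.4 in mutant hearts. Of 9 endothelial markers 6 fell (296 to 325 against 259 to 280 scaled RPKM summed), and of 8 fibroblast markers 3 rose (348 to 399 against 405 to 442). Of 8 markers of smooth muscle and pericytes, 2 rose and 2 fell (454 to 474 against 442 to 446). Of 11 tested heart muscle markers 7 fell and 1, Myh7, rose, with a summed level of 24505 to 27390.4 in control and 15444 to 16241 in mutant hearts. The largest falls in that sum were those of Myh6 (mean 5841 in control and 600 in mutant hearts) and Mb (6720 and 2406). Tnnt2, Ttn and Nkx2-5 did not pass, so the sum does not stand for heart muscle transcripts in general. Of 5 tested markers of neurons and glia 2 fell (5.85 to 6.60 against 4.30 to 5.55). Of 2 tested fat cell markers 1 fell (196 to 227 against 141 to 193, nearly all of it Fabp4 and Cidea). Adipoq, Lep and Cidec of that list are not among the deposited genes, and Plin1 and Ucp1 held too few counts to be tested. Plin1 had a mean of 0.00598 in control and 0.00675 in mutant hearts, so the fall of Fabp4 is not read as one of fat cells. With no composition factor the 6 endothelial calls, both falls among smooth muscle and pericyte markers (Rgs5 and Kcnj8) and the fall of Fabp4 were lost, 8 fibroblast markers were higher, 6 macrophage markers were lower, and of the heart muscle markers 4 were lower and 2 higher. In that setting 3 smooth muscle and pericyte markers and 1 fat cell marker were higher, and of neurons and glia 2 were higher and 2 lower. The calls of Fabp4, Rgs5 and Myl2 were also lost when any of several single hearts was left out (8, 7 and 10 of 14 alternatives in all). The same held for Pecam1, Kdr and Ptprc (7, 6 and 7 of 14), and Actc1 lost its call without mutant replicate 1. The part of these cells in the carrier results was not tested.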

How the data were processed

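Hearts of 6 pups, 3 control and 3 mutant, were grouped and numbered by their titles. The authors deposited whole-number counts per Ensembl gene and RPKM values per library, and the tools named, per the submitters' processing notes, are STAR 2.5.2b, featureCounts 1.5.1 and cutadapt 1.9, with build mm10. Not given in the sources used here are the annotation, the strand setting and the treatment of reads with several matches. Per the labels' protocols the kit was Illumina TruSeq RNA, version 2, which does not mark strand.

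Symbols, positions and exon overlaps came from GENCODE M21 by gene identifier. Counts of all 20121 genes were filtered with filterByExpr, which left 14877, and tested with edgeR 4.0.16 (R 4.3.3), TMM scaling and the quasi-likelihood F test with group as the only term. Genes with an adjusted p (Benjamini-Hochberg, all genes) under 0.05 were called. SE is the log2 fold change divided by the square root of F, an approximation. Scaled RPKM divides counts by the TMM-scaled library size and the gene length that the deposited RPKM values imply. Each library held 43314706 to 62095277 counts, and p-values measure only the spread between these 6 hearts. The test was checked on simulated data with 200 changed genes. It recovered 70% of the 1.5-fold changes, and 5.35% of its calls were false. The simulation held no shift in library composition, so it cannot speak to the choice of scaling.

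Every carrier is named except 1, which counts in the totals and is not reported here. Values in each heart are given for called carriers with a log2 fold change of at least 0.58 in size, the 8 most abundant carriers and the paralogue pairs, and, picked with values in view, for Slc25a1 and Slc25a30. From each companion list the 4 called genes with the smallest adjusted p and those against its majority are named. Genes named outside this rule, Slc25a5 among them, were picked with their values in view. The carriers and lists were chosen with earlier results of these data known. Alternatives were DESeq2 1.42.0, RLE scaling, no scaling factor, no genes of the mitochondrial genome, no filter, limma 3.58.1 on log2(RPKM + 0.1) and log2(RPKM + 1), a replicate block, and leaving out each heart.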

Additional observations from a re-analysis of the deposited data

How the results depend on the processing

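Counts of called genes depended above all on the factor for library composition. The lists are given here as carriers, relatives outside the rule, transporters, insertion genes and partner enzymes. Carriers called higher were 14 with no scaling factor, 14 by limma on log2(RPKM + 0.1) and 14 on log2(RPKM + 1), and carriers called lower were 8, 7 and 7. In the same order, relatives were 1, 1 and 1 higher and 3, 3 and 3 lower, transporters 4, 4 and 4 higher and 4, 4 and 4 lower, insertion genes 2, 2 and 2 higher and 1, 1 and 1 lower, and partner enzymes 8, 8 and 7 higher. Partner enzymes called lower were 9 with no scaling factor, and 1 was higher with no filter on low counts. All genes were 7479, 7391 and 7349 higher and 1207, 1221 and 1215 lower. The carriers' median log2 fold change was 0.096, 0.066 and 0.058, and the median of all genes 0.28, 0.26 and 0.17. Of calls in the carriers, the share that was higher went from 11.1% to 63.6% with no scaling factor, and over all genes from 48.1% to 86.1%. Carriers not called with TMM but higher with no scaling factor included Slc25a10, Slc25a17, Slc25a36, Slc25a37, Slc25a40, Slc25a42 and Slc25a51.

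The sign of 9 carriers turned under all 3 of these settings, in the same order Slc25a14 (0.25, 0.21, 0.11), Slc25a17 (0.28, 0.28, 0.26), Slc25a28 (0.12, 0.12, 0.11), Slc25a31 (0.22, 0.054, 0.039), Slc25a32 (0.019, 0.017, 0.014), Slc25a39 (0.077, 0.079, 0.076), Slc25a44 (0.15, 0.14, 0.13), Slc25a45 (0.16, 0.16, 0.12) and Slc25a46 (0.19, 0.18, 0.18). Slc25a23 turned to 0.0017 and 8.3e-04 by limma, and Slc25a17 to 0.0036 with DESeq2, 0.0036 with RLE scaling and 0.0092 without mitochondrial genome genes. Leaving out 1 heart at a time gave 1 to 2 carriers higher and 13 to 16 lower, a median of -0.26 to -0.15, 7 to 11 transporters lower, 1 to 2 partner enzymes higher, and log2 ratio differences of -0.16 to 0.079 for Slc25a22 to Slc25a18 and -0.44 to 0.062 for Slc25a25 to Slc25a23. Without 1 heart the log2 fold change was -0.14 to 0.11 for Slc25a14, -0.029 to 0.011 for Slc25a17, -0.010 to 0.18 for Slc25a27, -0.66 to 0.39 for Slc25a31 and -0.017 to 0.018 for Slc25a51. The calls of Slc25a1, Slc25a23, Slc25a30, Slc25a38 and Slc25a39 that were lost without a heart are given above. The cause was not tested.

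With the replicate number as a block, 3 carriers were higher and 17 lower, and of all genes 3090 were higher and 3229 lower. Slc25a24 (log2 fold change 0.29, edgeR adjusted p = 0.0425) and Slc25a32 (edgeR adjusted p = 0.0259) then passed. Deviations of same-numbered hearts correlated at 0.15, -0.05 and 0.10 across genes, so the numbers were not taken as pairs. Slc25a2, Slc25a18, Slc25a31 and Slc25a43 held under 100 counts a group, and 4 carriers held too few counts to be tested.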
